A study of Mus musculus with 25 samples.

Results

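The MAP kinase dual specificity phosphatases were followed through cultured neonatal mouse cardiac myocytes that did or did not overexpress CHF1/Hey2 and that did or did not receive serum. The 10 genes were Dusp1, Dusp2, Dusp4, Dusp5, Dusp6, Dusp7, Dusp8, Dusp9, Dusp10 and Dusp16, of 19938 genes with a probe set of their own on the Affymetrix Mouse Gene ST array. Probe sets annotated to one of these genes alone were kept, which gave 11 of 35557 probe sets, and for Dusp8, the gene with 2, the probe set with the higher mean over the 25 arrays was used. TG myocytes came from mice that carried CHF1/Hey2, a Hairy-related transcriptional repressor, under the mlc2v promoter, which is active in ventricular myocytes, and WT myocytes came from wild type mice. There were 5 WT and 6 TG cultures kept in serum free medium, and 7 WT and 7 TG cultures given 20% fetal bovine serum for 24 hours as a hypertrophic stimulus, with 1 array for each culture. The study counts these as independent cultures. How many litters or transgenic lines they came from is not given in the sources used here, so p-values measure the spread between these cultures.

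MAP kinases are switched on when an upstream kinase phosphorylates a threonine and a tyrosine of their activation loop, and dual specificity phosphatases remove both phosphates. Dusp1 (MKP-1), Dusp2 (PAC-1), Dusp4 (MKP-2) and Dusp5 encode nuclear enzymes whose genes are induced by growth factors or stress. Dusp6 (MKP-3), Dusp7 (MKP-X) and Dusp9 (MKP-4) encode enzymes that act mainly in the cytoplasm and prefer ERK, whereas Dusp8, Dusp10 (MKP-5) and Dusp16 (MKP-7) encode enzymes that act on JNK and p38. ERK activity induces several of these genes, which makes them a negative feedback on the pathway, and ERK, JNK and p38 are all engaged when cardiac myocytes enlarge.

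The arrays with and without serum stood on different scales. The median log2 value lay between 4.99 and 5.09 on the 11 arrays without serum and between 5.21 and 5.36 on the 14 arrays with serum, and the SD over probe sets between 2.10 and 2.14 and between 2.54 and 2.60. TG and WT cultures were therefore compared on the log2 scale within each serum set. Serum and no serum were compared by the rank of a probe set within its own array, given as a percentile of all probe sets in which 100 is the brightest. The set of arrays and the serum cannot be told apart. Hey2, the overexpressed gene, was 1.58 higher on the log2 scale in TG than in WT cultures without serum (SE 0.26, limma adjusted p = 0.853) and 1.81 higher with serum (SE 0.20, limma adjusted p = 0.00972), and TG and WT cultures did not overlap in either set. Tnnt2, Actc1 and Myl2, which mark cardiac myocytes, lay at the 98.5th percentile or higher on every array, as did Col1a1, a fibroblast marker. Other markers were lower on their lowest array. Among myocyte markers these included Tnni3 at 92.8, Ttn at 80.7 and Ryr2 at 70.5. Among fibroblast markers they included Col1a2 at 96.6, Dcn at 69.0 and Tcf21 at 62.0. The mean of 8 cardiac myocyte markers was low, between 10.34 and 10.97 on the log2 scale, in 6 cultures (WT 2, TG 4 and TG 5 without serum, WT 3, WT 4 and TG 6 with serum), and lay between 11.3 and 12.2 in the other 19.

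Serum and the rank of the phosphatase genes were compared first. Dusp2, Dusp4, Dusp5 and Dusp6 ranked higher with serum and Dusp10 ranked lower, in both WT and TG cultures, and the other 5 members did not pass the test in either. The count was 4 of 10 members higher and 1 of 10 lower in each genotype. Over all probe sets, 28.8% were called higher and 29.2% lower in WT, and 29.8% higher and 30.1% lower in TG (limma on percentiles, adjusted p under 0.05). The share of members called higher lay somewhat above this background and the share called lower lay below it. With 10 members, neither was tested against it. The median change of the 10 members was 1.62 percentile points in WT and 0.61 in TG, against 0.077 and 0.080 over all probe sets.

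Of the 4 genes for nuclear inducible enzymes, 3 ranked higher with serum. Dusp2 encodes the phosphatase PAC-1, first known from activated lymphocytes. Its percentiles in the 5 WT cultures without serum were 45.7, 47.5, 43.0, 44.6 and 39.9, and with serum the WT cultures ran from 53.6 through a median of 58.5 to 64.9. In TG cultures it ran from 43.0 through 44.9 to 51.3 without serum and from 52.2 through 56.3 to 61.6 with serum. Dusp2 was dim without serum, with a mean log2 value of 4.73 in WT and 4.80 in TG, below the medians of those arrays. Every culture with serum lay above every culture without it. The difference was 14.6 percentile points in WT (SE 1.95, limma adjusted p = 1.11e-06) and 10.8 in TG (SE 1.85, adjusted p = 2.91e-05).

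Dusp5 encodes a nuclear phosphatase specific for ERK. The 5 WT cultures without serum were almost the same, at percentiles of 67.9, 68.0, 68.0, 67.4 and 68.0, and the 7 with serum ran from 74.9 through 77.7 to 81.3. Without serum the deposited log2 value was identical, 6.5157, in WT 1, WT 2, WT 3, WT 5 and TG 4. The small spread there rests on these tied values. The TG cultures ran from 67.7 through 68.1 to 69.9 without serum and from 74.6 through 76.1 to 79.2 with it. The groups did not overlap in either genotype. Dusp5 changed by 10.02 percentile points in WT (SE 0.85, limma adjusted p = 1.10e-09) and 7.98 in TG (SE 0.81, adjusted p = 1.58e-08), and its spread between WT cultures was 0.265 percentile points (SD, n = 5) without serum and 2.21 (SD, n = 7) with it.

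Dusp4, which encodes the nuclear phosphatase MKP-2, lay at percentiles of 85.98, 86.2, 83.1, 79.2 and 89.1 in the WT cultures without serum. With serum the WT cultures ran from 89.2 through 92.2 to 94.7. The TG cultures ran from 79.0 through 82.0 to 88.2 without serum and from 88.8 through 90.1 to 93.3 with it. These groups also did not overlap, although the lowest WT culture with serum and the highest without it were close together. The difference was 7.32 percentile points in WT (SE 1.56, limma adjusted p = 0.000342) and 7.43 in TG (SE 1.48, adjusted p = 0.000161).

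Dusp1, the immediate early gene of the family, was bright in all 4 groups and its groups overlapped. In WT it lay at percentiles of 90.3, 91.8, 87.4, 84.7 and 89.98 without serum and ran from 87.8 through 91.3 to 94.3 with serum, and in TG from 87.0 through 88.0 to 92.1 and from 88.9 through 89.4 to 92.9. The difference was 2.29 percentile points in WT (SE 1.23, limma adjusted p = 0.115) and 1.39 in TG (SE 1.17, adjusted p = 0.315), so the 24 hour cultures gave no call for Dusp1. By log2 values Dusp1 was called higher in both genotypes, by 0.87 in WT and 0.68 in TG as deposited (limma adjusted p = 0.000271 and 0.00161), and by 0.62 and 0.45 after median centring of the arrays (adjusted p = 0.0085 and 0.0365), so its call depends on the scale.

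**Figure D1:**
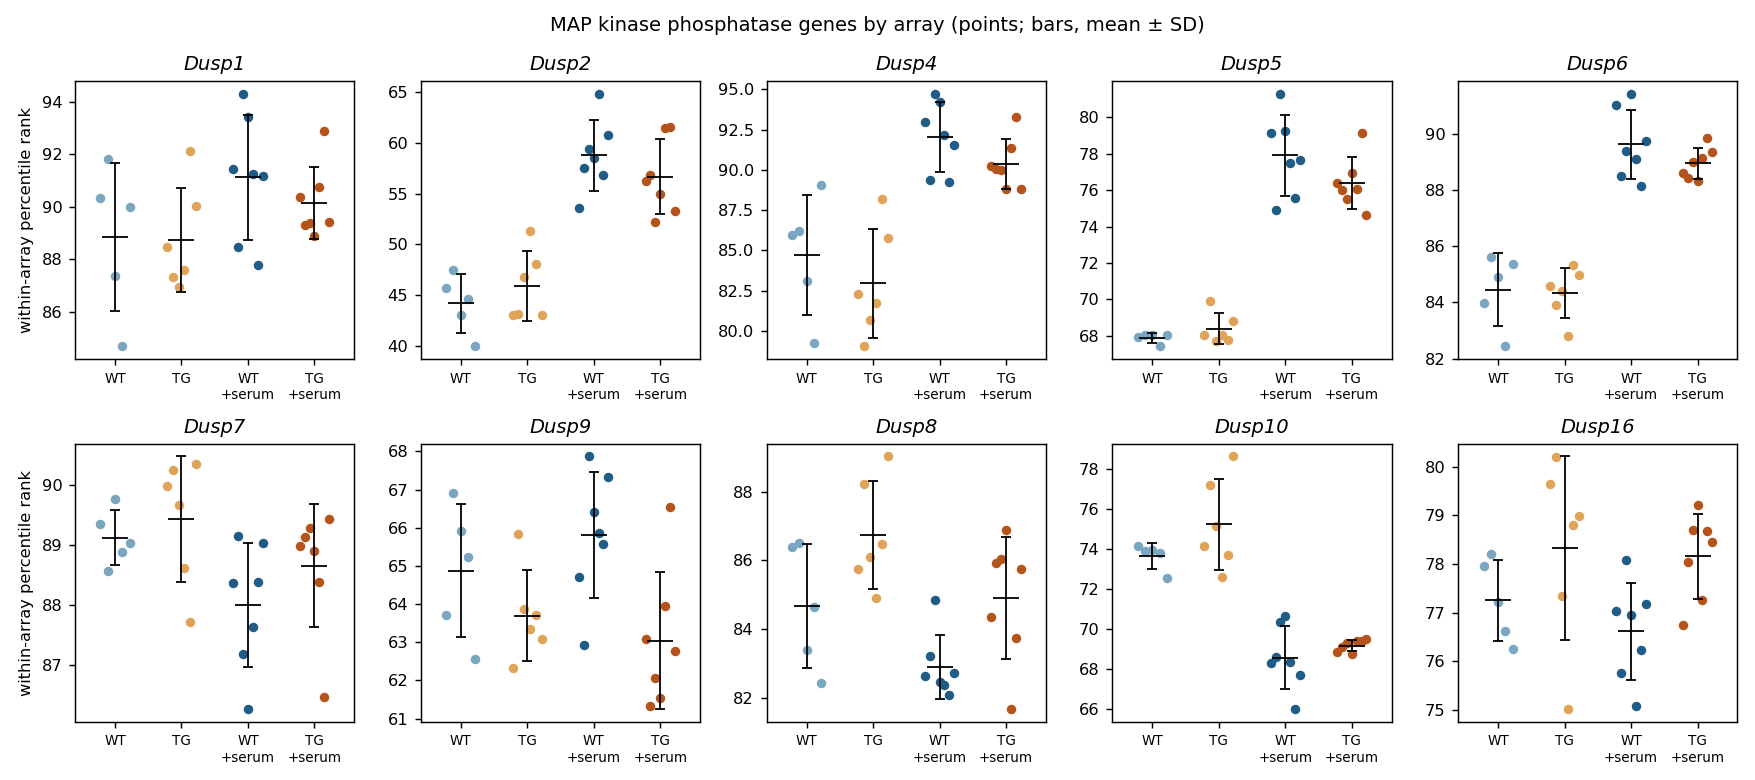
Within-array percentile rank (vertical axis, a separate scale for each gene) of the 10 phosphatase genes in each culture, in WT and TG myocytes without and with serum; points are single arrays and bars give the mean ± SD. Dusp2, Dusp4, Dusp5 and Dusp6 lie higher with serum and Dusp10 lower with no overlap between the groups of a genotype, while the remaining 5 genes overlap.

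Among the cytoplasmic ERK phosphatases, Dusp6 alone passed the test. MKP-3, its product, is a feedback inhibitor of ERK downstream of FGF signaling in embryos. Dusp6 lay at percentiles of 84.0, 85.6, 84.9, 82.4 and 85.3 in WT cultures without serum and ran from 88.1 through 89.4 to 91.4 with it. In TG it ran from 82.8 through 84.5 to 85.3 and from 88.3 through 89.0 to 89.9. The difference was 5.17 percentile points in WT (SE 0.60, limma adjusted p = 1.60e-07) and 4.62 in TG (SE 0.57, adjusted p = 3.51e-07), with no overlap. Dusp7, its close relative, differed by -1.12 percentile points in WT (adjusted p = 0.0978) and -0.77 in TG (adjusted p = 0.228). Dusp9, which is X-linked and needed for the mouse placenta, differed by 0.94 (adjusted p = 0.405) and -0.65 (adjusted p = 0.545), and the groups of both genes overlapped.

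Of the 3 phosphatases of JNK and p38, Dusp10 ranked lower with serum. Dusp10 encodes MKP-5, which acts on JNK and p38. Its percentiles were 74.1, 73.9, 73.9, 73.8 and 72.5 in WT cultures without serum and ran from 66.0 through 68.3 to 70.7 with serum. In TG they ran from 72.6 through 74.6 to 78.6 and from 68.7 through 69.3 to 69.5. Every culture with serum lay below every culture without it, with a difference of -5.10 percentile points in WT (SE 0.84, limma adjusted p = 1.80e-05) and -6.07 in TG (SE 0.80, adjusted p = 7.53e-07). On the deposited log2 scale the Dusp10 level was nearly the same in both sets, 7.01 ± 0.05 (SD, n = 5) and 6.95 ± 0.16 (SD, n = 7) in WT, and the fall in rank was not a call there (adjusted p = 0.470 in WT and 0.0681 in TG). With each array centred on its median, Dusp10 was called lower again in both genotypes. Dusp8, which encodes a phosphatase of JNK and p38 found in heart and brain, differed by -1.77 percentile points in WT (adjusted p = 0.0934) and -1.84 in TG (adjusted p = 0.0652), and Dusp16 by -0.63 (adjusted p = 0.469) and -0.17 (adjusted p = 0.845). The direction of both turned on the deposited log2 scale, where Dusp8 was called higher by 0.26 in WT and 0.25 in TG (limma adjusted p = 0.0216 for both) and Dusp16 by 0.37 and 0.41 (adjusted p = 4.97e-05 and 5.26e-06). With arrays centred on their median, only Dusp16 in TG was still called higher of these, by 0.18 (adjusted p = 0.032).

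For the 5 genes whose groups did not overlap, an exact two-sided permutation test over cultures gave p = 0.00126 in WT and p = 0.000583 in TG. These are the smallest values that 7 against 5 and 7 against 6 cultures allow. They follow from the lack of overlap by which these genes were picked, so they add no support of their own. The share of all probe sets without overlap was not counted, so the lack of overlap cannot be called particular to these genes. In WT, 3.35% of all probe sets rose at least as far as Dusp2, 7.7% as Dusp5, 12.5% as Dusp4 and 18.4% as Dusp6. For Dusp10, 18.3% fell at least as far. In TG these shares were 6.8%, 11%, 12.1%, 20.4% and 15.3%, in the same order. A gene that starts near the top has less room to rise on the percentile scale, so these shares do not order the genes by size of response. All 5 genes kept their calls in both genotypes when the 6 cultures low in myocyte markers were left out. In TG cultures Dusp7 then also passed, with a difference of -1.04 percentile points (limma adjusted p = 0.0166). Markers of other cells were set against the same shares of all probe sets, 28.8% higher and 29.2% lower in WT and 29.8% and 30.1% in TG. Of 8 endothelial markers, 5 ranked higher in WT and 3 in TG and 0 lower, with a median difference of 9.54 and 5.71 percentile points, and the mean log2 of the list ran from 5.31 to 6.25 without serum and from 5.80 to 7.23 with it. Of 8 macrophage markers, 2 ranked higher in WT and 3 in TG, and 1 ranked lower in TG. Of 8 fibroblast markers, 1 ranked higher and 3 lower in each genotype, of 5 smooth muscle markers 1 higher and 1 lower, and of 6 epicardial markers 1 higher and 2 lower. Of 8 cardiac myocyte markers, 0 passed in either direction (1 and 0 had an unadjusted p under 0.05). The study checked each preparation by staining for sarcomeric myosin and reports a high purity of myocytes. The part of other cells in the change of the phosphatase genes was not tested. From marker transcripts alone, fewer cells of a type and less RNA per cell cannot be told apart.

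**Figure D2:**
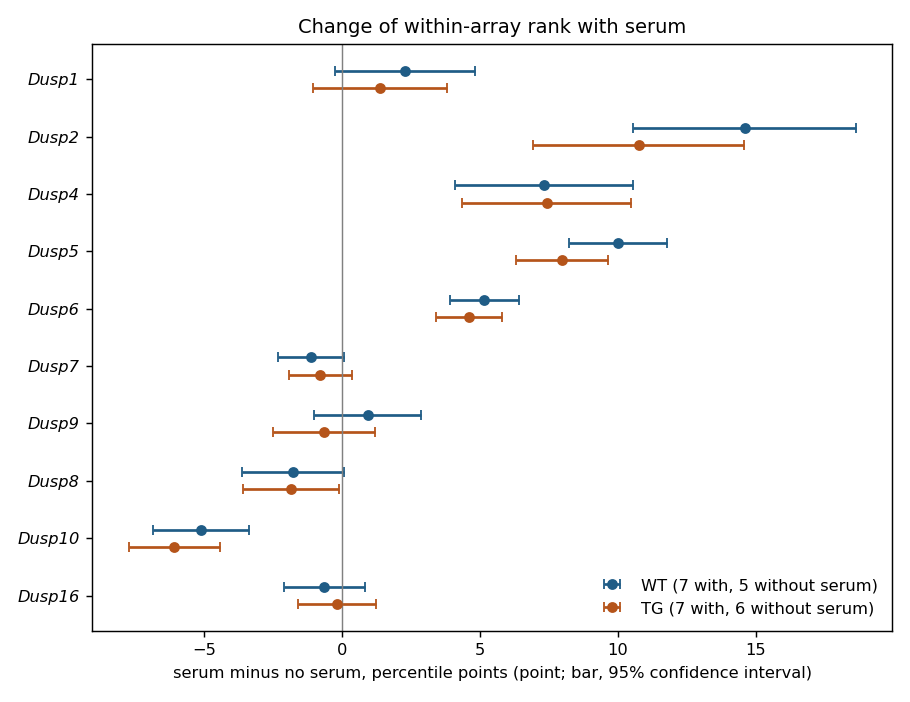
Change of within-array rank with serum (horizontal axis, percentile points, serum minus no serum) for the 10 genes, separately in WT and TG myocytes; points are limma differences and bars their 95% confidence intervals. Dusp2, Dusp4, Dusp5 and Dusp6 lie above 0 and Dusp10 below 0 in both genotypes, and the WT and TG intervals of each gene overlap.

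The bases before the gene starts are shown for members that differ in this pattern: Dusp2, Dusp5 and Dusp6, which ranked higher with serum, Dusp10, which ranked lower, and Dusp1, for which no change was called. Each is the 250 bases before the annotated start, from RefSeq on GRCm38.p6, written 5′ to 3′ on the strand of the gene, and 8 of the 10 members matched a window. Capitals mark matches on either strand to the CArG box, the site of serum response factor, to the cAMP response element TGACGTCA and its core TGACG, which lies within it, and to the E-box CACGTG and the class C site CACGCG, sequences that Hairy-related repressors can bind.
Dusp5, chr19:53528895-53529144, plus strand: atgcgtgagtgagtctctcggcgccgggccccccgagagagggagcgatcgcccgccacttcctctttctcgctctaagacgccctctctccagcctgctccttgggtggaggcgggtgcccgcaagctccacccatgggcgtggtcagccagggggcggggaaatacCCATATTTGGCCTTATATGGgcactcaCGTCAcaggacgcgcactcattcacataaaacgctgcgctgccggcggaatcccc
Dusp2, chr2:127335909-127336158, plus strand: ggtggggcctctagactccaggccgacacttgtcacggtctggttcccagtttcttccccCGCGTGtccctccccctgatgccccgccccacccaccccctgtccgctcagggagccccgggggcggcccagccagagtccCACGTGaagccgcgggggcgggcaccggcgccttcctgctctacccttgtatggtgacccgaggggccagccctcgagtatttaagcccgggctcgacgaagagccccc
Dusp1, chr17:26508473-26508722, minus strand: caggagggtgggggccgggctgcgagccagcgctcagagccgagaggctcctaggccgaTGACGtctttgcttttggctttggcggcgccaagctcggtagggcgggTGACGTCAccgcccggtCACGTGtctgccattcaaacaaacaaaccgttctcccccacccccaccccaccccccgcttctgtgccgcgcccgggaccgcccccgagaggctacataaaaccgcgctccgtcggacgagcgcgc
Dusp6, chr10:99262981-99263230, plus strand: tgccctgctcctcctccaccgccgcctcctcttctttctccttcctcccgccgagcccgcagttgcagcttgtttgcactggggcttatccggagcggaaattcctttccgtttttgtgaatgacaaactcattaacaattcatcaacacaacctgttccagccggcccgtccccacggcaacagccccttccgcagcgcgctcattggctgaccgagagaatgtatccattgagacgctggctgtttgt
Dusp10, chr1:184034131-184034380, plus strand: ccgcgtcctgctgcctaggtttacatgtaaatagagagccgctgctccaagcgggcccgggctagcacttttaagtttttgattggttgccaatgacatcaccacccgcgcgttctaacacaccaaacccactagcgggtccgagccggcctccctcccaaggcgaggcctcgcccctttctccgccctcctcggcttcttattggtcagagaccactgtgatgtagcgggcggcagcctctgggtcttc
The Dusp5 window held 2 CArG boxes side by side, CCATATTTGG from 82 to 73 and CCTTATATGG from 72 to 63 bases before the start. No other member's window matched the CArG box, and 1.47% of the 32851 windows in the table did. The Dusp1 window held 1 full cAMP response element, from 143 to 136 bases before the start, and an E-box from 126 to 121. The Dusp8 window, not shown, held 2 full elements, from 107 to 100 and from 63 to 56 bases before the start used for that window. Unlike the windows shown, it lies inside the full annotated span of its gene. A full element was found in 1.55% of all windows and an E-box in 6.02%. The Dusp2 window held an E-box from 109 to 104 and a class C site from 190 to 185 bases before the start, the latter a match in 7.62% of all windows. The core TGACG was found in 17.8% of all windows. The windows of Dusp6 and Dusp10 held none of these letters. A match is a description of the sequence, and no binding was measured here.

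TG and WT cultures were then compared within each serum set, which addresses whether CHF1/Hey2 overexpression changes the phosphatases that restrain MAP kinases. None of the 10 members passed the adjusted test without serum (1 had an unadjusted p under 0.05, Dusp8) or with serum (3 did, Dusp8, Dusp9 and Dusp16). The adjusted test called 0% of all probe sets higher and 0% lower in TG without serum, and 0.00562% higher and 0.00281% lower with serum. At an unadjusted p under 0.05, 2.31% were higher and 3.33% lower without serum, and 4.39% higher and 6.31% lower with serum. The median TG minus WT difference of the 10 members was 0.05 without serum and -0.11 with serum on the log2 scale, beside -0.01 and -0.02 over all probe sets.

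The phosphatases of JNK and p38 had higher means in TG cultures in 3 of 3 genes in both sets, with median differences of 0.15 and 0.16 on the log2 scale. Of all 10 members, 8 had higher means in TG without serum and 4 with serum. Over all 35557 probe sets, 16095 had higher means in TG without serum and 15467 with serum. Dusp8 had the largest difference of the 3 genes. Its log2 values in WT cultures without serum were 8.25, 8.23, 7.91, 8.05 and 7.83, and the TG cultures ran from 8.08 through 8.27 to 8.59. With serum the WT cultures ran from 8.17 through 8.30 to 8.55 and the TG cultures from 8.22 through 8.63 to 8.80. All 6 TG cultures without serum and 6 of 7 with serum lay above the WT mean, although the groups overlapped. The difference was 0.27 without serum (SE 0.11, 95% confidence interval 0.03 to 0.50, limma adjusted p = 0.855, exact two-sided permutation p = 0.0455) and 0.25 with serum (SE 0.09, interval 0.07 to 0.44, adjusted p = 0.348, exact p = 0.0175). The dimmer Dusp8 probe set differed by 0.18 (adjusted p = 0.855) and 0.17 (adjusted p = 0.508) in the same direction. A difference at least as large in this direction was found for 1.25% of all probe sets without serum and 4.64% with serum.

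Dusp16, which encodes a shuttling phosphatase of JNK and p38, was 0.12 higher in TG without serum (SE 0.08, limma adjusted p = 0.895) and 0.16 higher with serum (SE 0.06, adjusted p = 0.372, exact two-sided permutation p = 0.0105). With serum its WT values ran from 7.55 through 7.70 to 7.85 and its TG values from 7.71 through 7.86 to 7.95 on the log2 scale, and 7 of 7 TG cultures lay above the WT mean. Dusp10 differed by 0.15 without serum (adjusted p = 0.887) and 0.06 with serum (adjusted p = 0.775). Without serum its WT values were 7.07, 7.02, 7.04, 7.02 and 6.92, and the TG values spread from 6.92 through 7.12 to 7.44, with TG 2 and TG 6 above the rest. The study names Dusp8 and Dusp16 among phosphatase genes that it chose on these same arrays, so their direction here is not independent evidence.

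The cytoplasmic ERK phosphatases did not share a direction. Dusp9 was the member with the smallest p with serum: its WT log2 values ran from 6.40 through 6.69 to 6.90 and its TG values from 6.22 through 6.39 to 6.76, and 6 of the 7 TG cultures lay below the WT mean. The exception was TG 6, a culture low in myocyte markers. The difference was -0.29 with serum (SE 0.09, limma adjusted p = 0.340, exact two-sided permutation p = 0.0157) and -0.12 without serum (SE 0.07, adjusted p = 0.887). Dusp7 differed by 0.08 and 0.11, and Dusp6 by 0.01 and -0.09, without and with serum. Neither passed the test.

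The nuclear inducible genes all had lower means in TG than in WT with serum, with a median difference of -0.19 on the log2 scale, and 3 of 4 had higher means without serum. Dusp4 differed by -0.30 with serum (SE 0.18, 95% confidence interval -0.68 to 0.08, limma adjusted p = 0.562) and by -0.17 without (SE 0.22, adjusted p = 0.938). Dusp2 differed by -0.21, Dusp1 by -0.18 and Dusp5 by -0.13 with serum, and each of these intervals held 0. In the same cultures the 8 cardiac myocyte markers all had higher means in TG, with a median difference of 0.35, and the 8 endothelial markers all had lower means, with a median difference of -0.28, and 0 of either list passed the adjusted test. With the mean of the myocyte markers as a covariate, the difference with serum was 0.07 for Dusp1, -0.05 for Dusp4 and -0.17 for Dusp9, against -0.18, -0.30 and -0.29 without it. It was 0.22 for Dusp8 and 0.18 for Dusp16, against 0.25 and 0.16 without it, and 0 of 10 members passed the adjusted test.

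**Figure D3:**
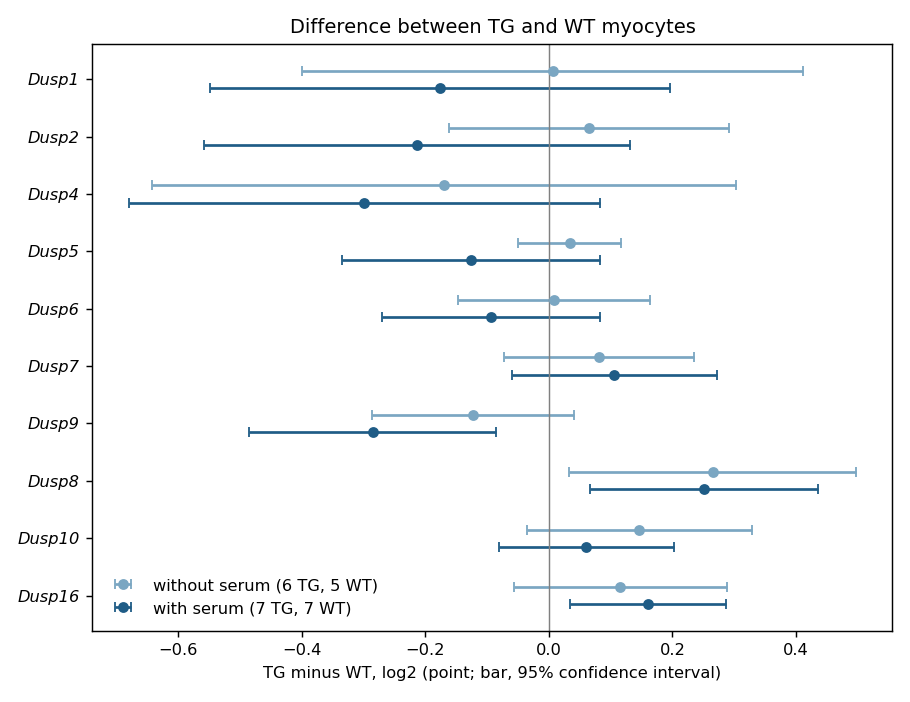
Difference between TG and WT myocytes (horizontal axis, log2, TG minus WT) for the 10 genes without serum and with serum; points are limma differences and bars their 95% confidence intervals. Dusp8 lies above 0 in both sets, Dusp16 above 0 and Dusp9 below 0 with serum, and the other intervals hold 0.

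The TG effect was next compared between the serum sets. None of the 10 members passed (the smallest unadjusted p was 0.189, for Dusp5, and every adjusted p was 0.9997), and of all probe sets 0% were called higher and 0.00281% lower. For Dusp8 the effect with serum minus that without was -0.01 (95% confidence interval -0.30 to 0.27) on the log2 scale. For Dusp2 it was -0.28 (interval -0.72 to 0.16). The intervals leave room for differences of the size of the effects themselves, and the different scales of the sets enter them.

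Cultures of the same group differed in their phosphatase genes, and several members differed together. Values were centred on the mean of their group, and 130 relations were tested by permutation within groups: 45 pairs of members, and each member against the myocyte marker mean and against Hey2, in each serum set. Of the 45 pairs, 2 passed the adjusted test by Pearson r without serum and 8 with serum. Dusp1 and Dusp4 were the closest pair with serum, with Pearson r = 0.98 and Spearman rho = 0.96 over 14 cultures (both permutation p = 1e-05, the smallest possible, adjusted p = 0.0013). Without serum r was 0.89 and rho 0.89 over 11 cultures (permutation p = 0.00117 and 0.00118, adjusted p = 0.0183 and 0.0307). The relation held without the 2 cultures farthest from the median of Dusp1, with r = 0.97 and 0.76, and without the cultures low in myocyte markers, with r = 0.94 and 0.91. The highest and lowest cultures of Dusp1 with serum were WT 3 at 10.09 and WT 6 at 8.87 on the log2 scale, and those of Dusp4 were WT 3 at 10.19 and TG 7 at 9.01.

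With serum, Dusp5 went with both. Its r was 0.91 with Dusp1 and 0.92 with Dusp4 (permutation p = 0.00032 and 0.00015, adjusted p = 0.00832 and 0.00487), with rho = 0.79 and 0.77 (adjusted p = 0.0537 and 0.0594). Without serum its r was 0.04 with Dusp1 and -0.09 with Dusp4, where Dusp5 hardly varied and several cultures shared the same value. The difference between the sets was not tested. The other pairs that passed by r with serum joined Dusp9 and Dusp10 to Dusp1 and Dusp4, with r between 0.72 and 0.80, and Dusp7 to Dusp4 with r = -0.75. By rho, only Dusp1 with Dusp9 of these passed (permutation adjusted p = 0.0362), and the rest had adjusted p between 0.101 and 0.135. Without the cultures low in myocyte markers, r with Dusp1 was 0.57 for Dusp9 and 0.66 for Dusp10. With Dusp4 it was then 0.42 for Dusp9, 0.59 for Dusp10 and -0.34 for Dusp7. Without serum, Dusp8 and Dusp10 formed the other pair that passed, with r = 0.80 and rho = 0.78 (permutation p = 0.00127 and 0.0072, adjusted p = 0.0183 and 0.0754). It was 0.64 without the 2 cultures farthest from the median.

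**Figure D4:**
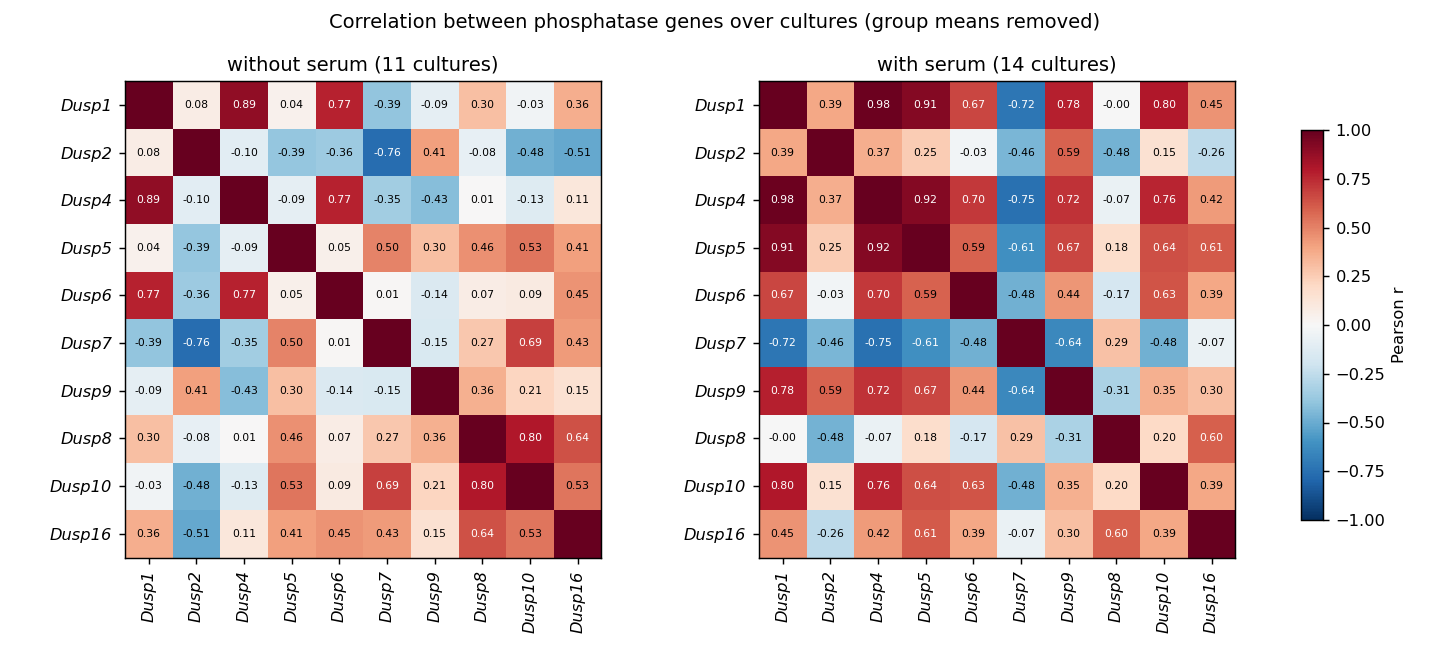
Pearson correlation between each pair of the 10 genes over the 11 cultures without serum and the 14 cultures with serum, after the mean of each group was removed; red is positive and blue negative, and each cell prints its r. Dusp1 and Dusp4 have r = 0.89 without serum and 0.98 with serum, and Dusp5 joins them with serum at 0.91 and 0.92.

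Several of these members also differed with the level of myocyte transcripts. With serum, cultures with a lower mean of the 8 myocyte markers had more Dusp1 (r = -0.93, rho = -0.87, permutation p = 2e-05 and 0.0002, adjusted p = 0.0013 and 0.00867), more Dusp4 (r = -0.90, rho = -0.84, permutation p = 0.00011 and 0.00099, adjusted p = 0.00477 and 0.0307) and more Dusp9 (r = -0.86, rho = -0.88, permutation p = 0.00044 and 0.00012, adjusted p = 0.00953 and 0.0078). Dusp5 (r = -0.77, rho = -0.58, permutation p = 0.00326 and 0.0517, adjusted p = 0.0385 and 0.198) and Dusp10 (r = -0.68, rho = -0.65, permutation p = 0.00448 and 0.0215, adjusted p = 0.0416 and 0.133) also passed by r, and without the 2 cultures of most extreme marker level their r was -0.54 and -0.65. Dusp7 ran the other way (r = 0.86, rho = 0.70, permutation p = 0.00109 and 0.0132, adjusted p = 0.0183 and 0.101). For the other 4 genes, r without those 2 cultures was -0.88 for Dusp1, -0.81 for Dusp4, -0.70 for Dusp9 and 0.78 for Dusp7. Within the WT cultures alone it was -0.93, -0.89, -0.75 and 0.79, and within the TG cultures -0.99, -0.94, -0.97 and 0.94, in the same order. Over the 11 cultures left after removal of the 3 low ones it was -0.80, -0.70, -0.75 and 0.51. Without serum only Dusp7 passed, with r = 0.87 and rho = 0.71 over 11 cultures (permutation p = 0.00645 and 0.0291, adjusted p = 0.0466 and 0.145), and r was 0.16 over the 8 cultures left without the low ones, so that relation rests on them. The part of myocyte content in the joint differences of Dusp1, Dusp4 and Dusp5 was not tested.

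**Figure D5:**
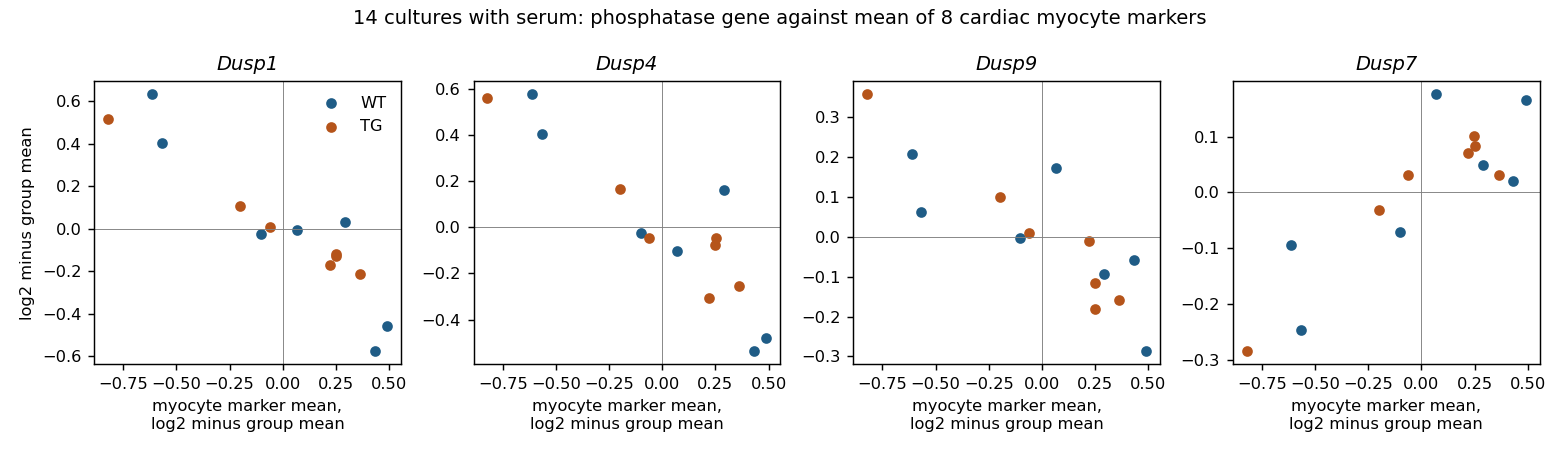
Log2 level of Dusp1, Dusp4, Dusp9 and Dusp7 (vertical axes) against the mean log2 level of 8 cardiac myocyte markers (horizontal axes) in the 14 cultures with serum, each minus its group mean; points are cultures, coloured by genotype. Dusp1, Dusp4 and Dusp9 fall and Dusp7 climbs as the marker mean increases, with r = -0.93, -0.90, -0.86 and 0.86.

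Against Hey2 itself, Dusp8 and Dusp7 passed the test with serum. For Dusp8, r was 0.77 and rho 0.82 over 14 cultures (permutation p = 0.00522 and 0.00331, adjusted p = 0.0426 and 0.0538), and r was 0.75 without the 2 cultures farthest from the Hey2 median. It was 0.47 within the WT and 0.86 within the TG cultures. Among the TG cultures with serum, TG 4 had the highest Hey2, at 9.36, and the highest Dusp8, at 8.80 on the log2 scale, and TG 5, with the lowest Dusp8 of 8.22, had Hey2 at 8.17. Other members had r of similar size but negative sign within these TG cultures: Dusp1 at -0.90, Dusp4 at -0.89, Dusp2 at -0.88 and Dusp9 at -0.85. Without serum, r of Dusp8 with Hey2 was 0.59 (permutation adjusted p = 0.219). For Dusp7, r was 0.62 and rho 0.67 with serum (permutation p = 0.00721 and 0.00754, adjusted p = 0.0493 and 0.0754), and 0.49 without the 2 farthest cultures. Without serum, r of Dusp7 was 0.78 (permutation adjusted p = 0.16), with 0.93 within the TG and -0.84 within the WT cultures. Hey2 in TG cultures is driven by a myocyte promoter, and TG 6, with the lowest Hey2 of 7.94, was also low in myocyte markers.

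Genes with the most similar pattern were sought among 12396 others with a mean log2 of at least 5, by Pearson r over the 25 arrays after removal of the group means. These values are descriptions. The closest to Dusp1 were Pgm2 and Tagln2 (r = 0.96 and 0.95), and the closest to Dusp4 were Itpripl2 and Scpep1 (r = 0.98 and 0.97). For Dusp5 they were Rnf150 and Inhba, which encodes an activin subunit (r = 0.91 and 0.89), and for Dusp2 Med30 and Abcg2 (r = 0.89 and 0.85). Dusp6 was closest to Arf2 and Dkc1 (r = 0.87 and 0.85). Dusp7 was closest to Hspb6, a small heat shock protein of muscle, and Gm5105 (r = 0.92 and 0.89), and Dusp9 to Plet1 and Psma2 (r = 0.81 for both). The phosphatases of JNK and p38 had the least close neighbours of all: Gnai1 and Glrx for Dusp8 (r = 0.75 and 0.71), Ldlrad4 and Wwtr1 for Dusp10 (r = 0.77 and 0.73), and Mlf2 and Arfgap3 for Dusp16 (r = 0.75 and 0.72).

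Other genes of the pathway were counted against the same background, in which 28.8% of all probe sets ranked higher and 29.2% lower with serum in WT, and 29.8% and 30.1% in TG. Of 19 feedback inhibitors and targets of ERK, 9 ranked higher with serum in WT and 5 lower, and 11 higher and 4 lower in TG. Those called higher included Ier3 (7.80 and 8.77 percentile points in WT and TG), Lif, a cytokine (7.59 and 8.15), Spred3 (8.97 and 7.26) and Spry4, a Sprouty inhibitor of receptor signaling (6.01 and 8.11). Each of these 4 had a limma adjusted p of 0.000481 or less in both genotypes. Those called lower in both genotypes were Spry1, Spry2, Etv1 and Fos, which were named after their values were seen. Of 16 atypical dual specificity phosphatases, which lack the MAP kinase binding domain, 3 ranked higher and 2 lower in WT, and 4 higher and 2 lower in TG, which lies below those shares. Dusp19 differed by 14.4 and 13.9 percentile points and Styx, a pseudophosphatase, by 6.42 and 6.40. Of 9 other phosphatases that act on MAP kinases, 1 ranked higher and 4 lower in each genotype, with Ppm1b at 4.50 and 4.75 and Ppm1d at -5.85 and -6.44. Of the 12 measured MAP kinases, 6 ranked higher and 3 lower in WT and 5 and 3 in TG, and Mapk10, the JNK of brain and heart, differed by -12.8 and -12.5. Between TG and WT, 0 genes of these 4 lists passed the adjusted test in either set. The smallest p were those of Dusp28 without serum (0.22 higher in TG on the log2 scale, adjusted p = 0.853), which the study also chose on these arrays, and of Ier3 with serum (0.36 higher, adjusted p = 0.292).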

How the data were processed

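Log2 expression values, as deposited, were made by the authors from Affymetrix Mouse Gene ST arrays with RMA in Affymetrix Expression Console 1.1, which corrects background, normalizes and summarizes probes into 35557 probe sets. Whether both serum sets were normalized together is not given in the sources used here. Of the probe sets, 21789 had 1 gene symbol, 1621 had several and 12147 were unnamed, and 0 per-sample columns were left out. TG and WT were compared within each serum set, and the TG effect between sets over 25 arrays, with limma 3.58.1 in R 4.3.3 and Benjamini-Hochberg adjustment over all probe sets at 0.05. Serum was tested with limma on within-array percentiles over 25 arrays. Exact permutation tests over cultures were run in R. Correlations (permutation within groups) used Python 3.11.15 and scipy 1.17.1. Every member was named, Hey2 as the check of the transgene, the 2 genes most like each member, and of each other list described up to 4 genes past the adjusted test or otherwise those of smallest p. The members and lists were chosen with earlier results of these data known. The methods were tested on simulated data. Alternatives were other scalings, filters, probe set rules, array weights, a replicate block, a marker covariate and arrays left out. The number of arrays limits the precision. Promoter windows came from RefSeq on GRCm38.p6.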

Additional observations from a re-analysis of the deposited data

Results flagged for a closer look

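In 2 of 40 combinations of gene and group, 1 culture stood far from the others of its group, by its gap to the nearest culture relative to the range of the group. For values without ties, chance alone does so in about 1 of 20. Dusp5 in WT cultures without serum was 6.446 in WT 4 on the log2 scale, and the other cultures all held the identical value of 6.52. The gap was small in size, and the flag rests on these tied values. Dusp7 in TG cultures with serum was 8.756 in TG 6, and the nearest culture lay at 9.01. TG 6 with serum was also low in cardiac myocyte markers.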

How the results depend on the processing

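No member passed the adjusted test between TG and WT, or for the difference of the TG effect, under any setting run, and the 5 serum calls held under every setting except that Dusp10 was not called on deposited log2 values. There, 9 members were called in each genotype, and against the rank result the sign turned for Dusp7 (0.34 in WT, 0.37 in TG), Dusp8 (0.26, 0.25), Dusp16 (0.37, 0.41) and, in TG, Dusp9 (0.30). With arrays centred on their median these were 0.093 and 0.14, 0.012 and 0.017, 0.12 and 0.18, and 0.070. Without serum, the TG difference turned for Dusp1 with array weights (-0.030), quantile normalization (-0.026), the replicate block (-0.023) and ranks (-0.088), and for Dusp6 with the last 3 (-0.014, -0.0012 and -0.11). With serum it turned for Dusp1 with the myocyte marker covariate (0.072). The difference of the TG effect turned for Dusp8 on median-centred arrays (0.0048), for Dusp4 (0.058), Dusp7 (-0.060) and Dusp16 (-0.0099) without the 6 cultures low in myocyte markers, and for Dusp4 on ranks (0.11). Over the settings that kept or left out several cultures at once, a member not called by rank was called for serum with the same sign in 5 cases in WT and 4 in TG, the log2 scales included. The covariate, the removal of those cultures and ranks for TG against WT were chosen after seeing the data. The cause was not tested.

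Probe sets called without serum went from 0 to 1 without the 3 low cultures. With serum they went from 3 to 141 in a fit of all 25 arrays, 38 with the covariate, 5 with quantile normalization, with median centring and with dim probe sets left out, and 1 with probe sets averaged per gene and with the replicate block. For the difference of the TG effect they went from 1 to 6 with array weights and with median centring, 2 with dim probe sets left out, and 0 with quantile normalization, the replicate block and ranks. For serum they went from 20617 to 11977 in WT and from 21298 to 12365 in TG with 1 probe set per gene, and to 10535 and 10810 with dim probe sets left out, where fewer were tested. Deviations of same-numbered cultures correlated between -0.45 and 0.15 across genotypes and between -0.24 and 0.19 across serum sets, so the numbers were not taken to pair cultures. The study numbers its cultures without serum differently from the labels, so equal numbers need not be 1 preparation. The replicate block left 5 serum calls among members in each genotype.

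With 1 culture left out, probe sets called with serum ran from 1 to 3 and for the difference of the TG effect from 0 to 4, and members called for serum from 5 to 6. Dusp1 was then called in WT without WT 2 of the cultures without serum (3.04, adjusted p = 0.0471) or WT 6 with serum (2.85, 0.0498). Dusp8 was called in WT without WT 5 without serum (-2.33, 0.0351), and in TG without TG 4 without serum (-2.20, 0.0354) or TG 4 with serum (-2.16, 0.0351). The TG difference without serum ran from -0.13 to 0.11 for Dusp1, -0.00026 to 0.12 for Dusp2 and -0.045 to 0.045 for Dusp6. The difference of the TG effect ran from -0.26 to 0.012 for Dusp4, -0.018 to 0.072 for Dusp7, -0.063 to 0.044 for Dusp8 and -0.015 to 0.075 for Dusp16, and the serum difference of Dusp16 in TG from -0.83 to 0.20.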
